A study of Mus musculus with 6 samples.

Results

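Genes that mark microglia and macrophages were measured in the mouse retina after titanium dioxide nanoparticles had been injected into the eye. The set holds 37 genes chosen by name, with earlier results of these data known. Each was found on the array under its gene name or an older or newer synonym (Emr1 is now Adgre1, and Sfpi1 is now Spi1). All 37 had a probe, 53 probes in all, and all 37 passed the filter on dim probes, out of 26153 genes or names measured. Msr1 passed through the treated channel alone, since its control signal did not stand well above background on any of the 6 arrays. The genes were read in 4 classes: 8 homeostatic genes of resting microglia, 15 activation genes, 10 pan-macrophage and leukocyte genes, and 4 genes for transcription factors and signalling.

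Male C57BL/6 mice, 8 weeks old, received phosphate-buffered saline (PBS) or nanoparticles in the right eye, and the retinas were taken 7 days later. The nanoparticles were given at a dose labelled PTC and at 10 times that dose, labelled 10PTC; the labels do not spell out the abbreviation. Each group had 12 mice, and each tube of RNA came from 4 pooled retinas, which made 3 pools per dose. On each 2-colour array a treated pool was labelled with Cy5 and PBS control RNA with Cy3. No array had the dyes swapped, so a dye effect shared by the arrays cannot be told apart from the treatment. The labels do not say how many pools the control RNA came from, and a ratio tested against 0 leaves out the spread among control animals. Values below are log2 ratios of Cy5 over Cy3, where 1 means 2-fold more in the treated pool, with SD over the 3 arrays of a dose. A gene is said to have risen or fallen where its limma p, adjusted over all genes measured by the Benjamini-Hochberg method, was under 0.05. These p-values rest on the spread among pools of 4 retinas, pooled over both doses.

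Microglia are the resident macrophages of the retina. At rest they carry receptors with which they sense neurons and nucleotides, such as Cx3cr1 and P2ry12, and they need signalling through Csf1r to survive. After injury microglia can multiply, take up debris and raise a programme of phagocytic and immune receptors that signal through the adaptors Tyrobp and Fcer1g, among them Trem2 and the Fc receptors, while genes of the resting state such as P2ry12 and Tmem119 are often turned down. In RNA from whole retina, more microglia and more RNA per microglial cell cannot be told apart.

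The tissue carried the RNA of retina: all 11 rod photoreceptor markers and all 10 markers of Muller glia and astrocytes stood well above background in the control channel on all 6 arrays. Of 43020 gene spots per array, 70.99% to 85.51% were clearly brighter than background in at least 1 channel, and none was saturated. The PTC arrays differed among themselves in the microglial genes. Replicate 1 of PTC was the highest of the 6 arrays for 31 of the 37 genes, and replicate 2 of PTC was the lowest PTC array for 31. The median SD of the 37 genes was 0.39 at PTC and 0.10 at 10PTC, against 0.10 and 0.07 over all genes. For 34 of the 37 the SD was larger at PTC. In such genes the spread shared by both doses is too small for PTC and too large for 10PTC, which affects their p-values. With each dose fitted alone, 17.6% of all genes passed at PTC and 35.8% at 10PTC, against 33.1% and 27.7% with the shared spread. Replicates 1 and 2 of PTC lay on one slide (slide 1), and replicate 3 with all 10PTC arrays on the other (slide 2).

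At PTC, 28 of the 37 genes rose and 0 fell, with a median log2 ratio of 0.61. Over all genes 33.1% passed the test in either direction, 16.8% rose, and the median was -0.0008. At 10PTC, 24 of the 37 rose and 0 fell, with a median of 0.43, where 27.7% of all genes passed and 14.4% rose, with a median of -0.0005. All 24 were among the 28 of PTC. The share of members that rose was above the share of all genes that rose at each dose. The members were chosen with earlier results of these data known, so the shares here describe the set and are no test of it. The 2 comparisons share the PBS reference and are no independent repeats of each other. By size, 10 of the 37 genes were at least 2-fold higher at PTC, as were 129 of the 26153 genes, and 8 were at 10PTC, as were 98 genes. Above 0 on all 6 arrays were 29 of the 37, against 21.9% of the 26147 genes with a value on every array.

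Array by array, the median of the 37 genes was 1.01, 0.34 and 0.61 on PTC replicates 1 to 3. On the 10PTC arrays it was 0.55, 0.31 and 0.57. Every array thus had a median above 0, and the doses overlapped. Without PTC replicate 1, 25 genes rose at PTC, with a median of 0.49, where 24.2% of all genes passed. Another 2 had a call lower: Lgmn at -0.25, and Sfpi1, whose treated signal was not well above background on any PTC array. The 10PTC calls depended more on single arrays, in these genes and over all genes. Without 10PTC replicate 1, 5 genes rose (5.16% of all genes passed), and without replicate 3, 6 rose (5.98%). The medians were 0.45 and 0.42, and with all arrays 27.7% of all genes passed at 10PTC. With slide as a block, 25 rose at PTC (22.5% of all genes passed) and 1, Itgam, at 10PTC (3.85%), with medians of 0.62 and 0.43. The Itgam probe used holds a tandem repeat and is described with its other probes. Within slide 1, which held 2 PTC arrays and no 10PTC array, 0 members passed in limma (1.11% of all genes), with a median of 0.66. Within slide 2, 28 rose at 10PTC (35.8% of all genes passed). The same fit called 23 members higher at PTC (6.53% of all genes), but from PTC replicate 3 alone, whose spread was taken to be that of the 10PTC arrays. Median centring in place of loess turned the split of all calls from 4404 higher and 4251 lower to 8208 and 4236 at PTC, and from 3764 and 3471 to 9651 and 5010 at 10PTC. Under it 29 and 28 of the members rose and 1 had a call lower at each dose, Sfpi1, with the same limit on its signal at PTC.

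**Figure D1:**
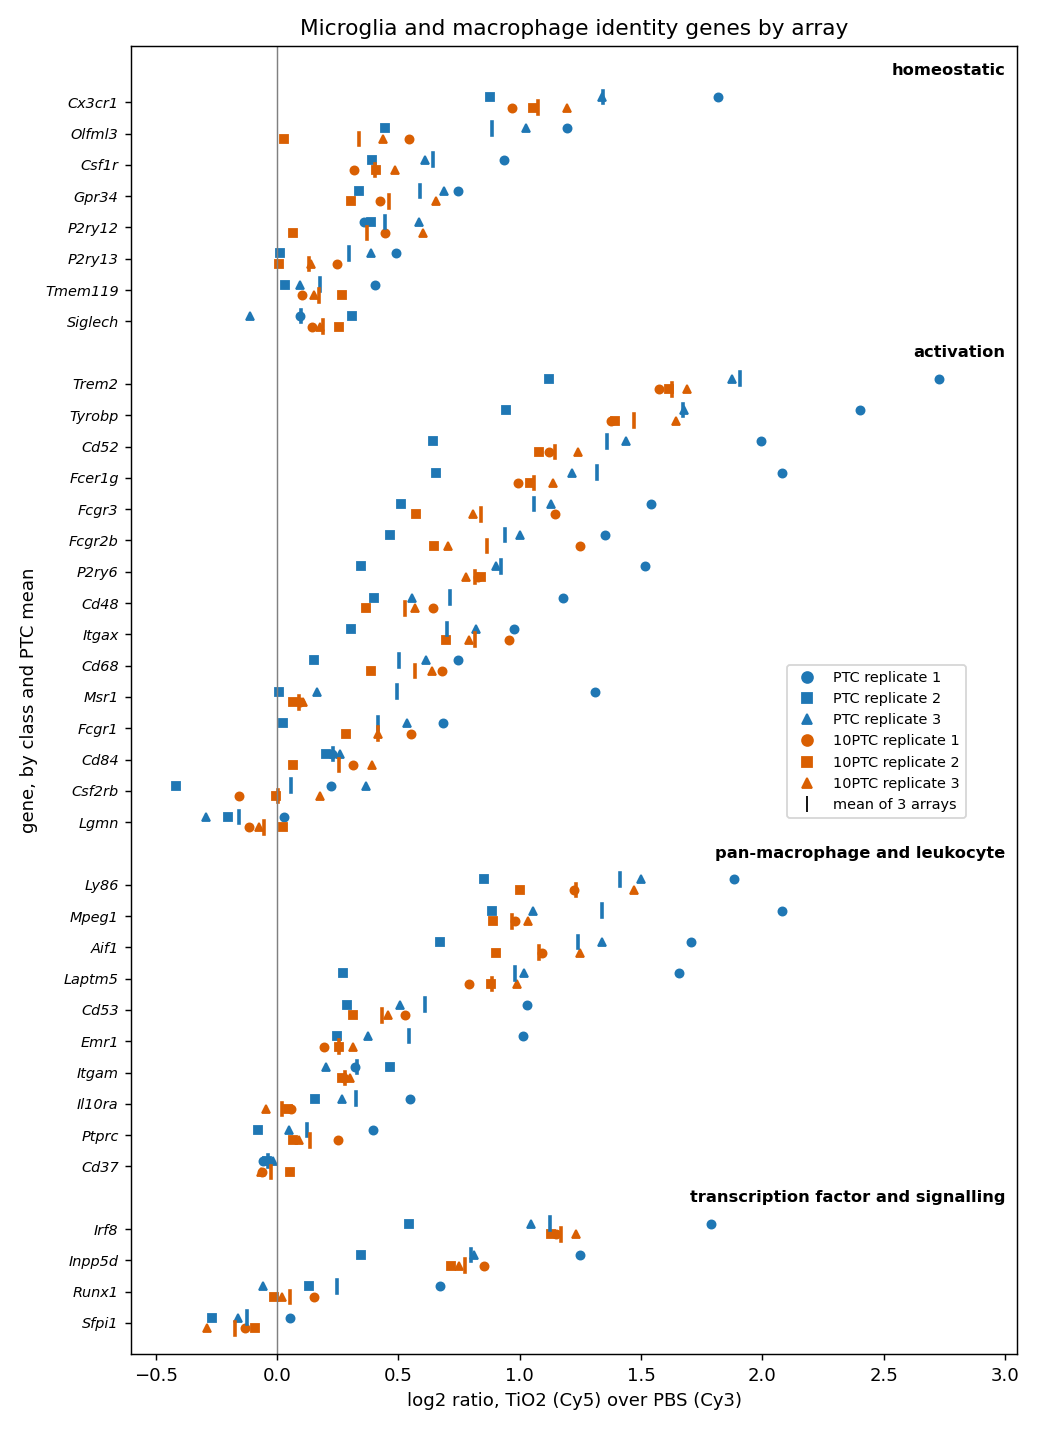
Log2 ratio of nanoparticle-treated (Cy5) over PBS control (Cy3) RNA for each of the 37 genes (rows, by class and by mean at PTC), with 1 point per array (blue PTC, orange 10PTC, shape by replicate) and a vertical tick at each dose's mean of 3 arrays. Trem2 and Tyrobp lie farthest to the right, PTC replicate 1 is the rightmost point for 31 genes, and Cd37, Lgmn, Csf2rb and Sfpi1 lie around 0.

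Among the activation genes 12 of 15 rose at each dose, with medians of 0.71 at PTC and 0.82 at 10PTC. With the processing used, the highest ratios of the set belonged to a receptor and its adaptor. The order of genes by size depended on the processing, most for dim genes. Across the alternatives the 10PTC ratio of the dim gene Cd68 ranged from 0.34 to 1.98, and that of Trem2 from 1.59 to 1.84. Trem2, a receptor of microglia for lipids and cell debris (probe at mm9 chr17:48491537-48491596), stood at 2.73, 1.12 and 1.87 on PTC replicates 1 to 3 and at 1.57, 1.61 and 1.69 on those of 10PTC. It was far above 0 on every array, and the 10PTC arrays lay inside the range of the PTC arrays. Its means were 1.91 ± 0.80 (SD, n = 3) at PTC, 3.75-fold, with an adjusted p of 0.0024, and 1.63 ± 0.06 at 10PTC, 3.09-fold, with an adjusted p of 0.0052. By size it ranked 20 among the 26153 genes at PTC and 19 at 10PTC. Tyrobp, the adaptor DAP12 that passes the signal of Trem2 into the cell, had a probe whose mm9 positions on chromosome 7 span 31200651 to 31202378. Its ratios were 2.40, 0.94 and 1.68 at PTC and 1.38, 1.39 and 1.65 at 10PTC, again spread more widely at PTC than at 10PTC. The means were 1.68 ± 0.73, 3.19-fold (adjusted p = 0.0028), and 1.47 ± 0.15, 2.77-fold (adjusted p = 0.0055).

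The Fc receptors, which bind antibody, rose as a group: Fcer1g, Fcgr3, Fcgr2b and Fcgr1 passed at each dose. Fcer1g, the signalling chain of the activating receptors, was at 2.08, 0.66 and 1.21 at PTC and at 0.99, 1.04 and 1.14 at 10PTC, with means of 1.32 ± 0.72 (adjusted p = 0.0053) and 1.06 ± 0.07 (adjusted p = 0.014). Fcgr3, an activating receptor, averaged 1.06 ± 0.52 and 0.84 ± 0.29, and Fcgr2b, the inhibitory receptor of the family, 0.94 ± 0.45 and 0.87 ± 0.33. Fcgr1, the high-affinity receptor, was lower, at 0.68, 0.03 and 0.53 at PTC and 0.55, 0.28 and 0.41 at 10PTC, with adjusted p-values of 0.032 and 0.036. Only on PTC replicate 2 was Fcgr1 close to 0.

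Of the other activation genes, Cd52, a small surface glycoprotein of leukocytes, was the highest, at 1.36 ± 0.68 at PTC (adjusted p = 0.0041) and 1.15 ± 0.08 at 10PTC (adjusted p = 0.0093). P2ry6, the receptor through which the nucleotide UDP triggers uptake by microglia, stood at 1.52, 0.35 and 0.90 at PTC and at 0.83, 0.84 and 0.78 at 10PTC; the adjusted p-values were 0.0090 and 0.017. Itgax, the integrin CD11c, had means of 0.70 ± 0.35 and 0.82 ± 0.13, with the 10PTC arrays at 0.96, 0.70 and 0.79. Cd48, a ligand of the SLAM family of receptors, had 0.71 ± 0.41 and 0.53 ± 0.14. Cd68, a lysosomal glycoprotein of phagocytes, had 0.50 ± 0.31 (adjusted p = 0.014) at PTC. At 10PTC its control signal was not well above background on any array, so its change there, 1.48-fold higher (adjusted p = 0.012), is of uncertain size. A bound was sought by setting the mean treated signal against the higher of the control signal and the lowest signal that stood above background. This bound equalled the plain ratio, so it gives no minimum of its own.

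Of the 15, 3 did not pass at either dose. Lgmn, a lysosomal protease, had means of -0.16 ± 0.17 and -0.06 ± 0.07. Msr1, a scavenger receptor, was at 1.31 on PTC replicate 1 and between 0.01 and 0.17 on the other 5 arrays, with an adjusted p of 0.12 at PTC and 0.79 at 10PTC. Its control signal was not above background on any array, so its folds are of uncertain size. They were 1.41-fold at PTC, where 2 of 3 treated pools were above background, and 1.06-fold at 10PTC, where 1 was. Neither is a minimum rise. Csf2rb, the shared chain of the receptors for GM-CSF, IL-3 and IL-5, is described with its probes.

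Among the homeostatic genes 6 of 8 rose at PTC and 4 of 8 at 10PTC, and 0 fell at either dose. The medians were 0.52 and 0.35. Cx3cr1, the receptor for the neuronal chemokine fractalkine (probe at mm9 chr9:119957811-119957870), was the highest, at 1.82, 0.88 and 1.34 at PTC and 0.97, 1.06 and 1.20 at 10PTC. On each of the 6 arrays the ratio was 0.88 or more. The means were 1.34 ± 0.47, 2.54-fold (adjusted p = 0.0016), and 1.07 ± 0.11, 2.11-fold (adjusted p = 0.0041). Csf1r, the receptor for the survival factors Csf1 and Il34, was at 0.94, 0.39 and 0.61 at PTC and 0.32, 0.41 and 0.49 at 10PTC, and rose at both (adjusted p = 0.0035 and 0.020). Gpr34, a lipid-sensing receptor of microglia, rose by a similar amount, with means of 0.59 ± 0.22 and 0.46 ± 0.18.

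P2ry12, the nucleotide receptor by which resting microglia find damage, stood at 0.36, 0.39 and 0.59 at PTC and at 0.44, 0.07 and 0.60 at 10PTC. It was above 0 on each array, with adjusted p-values of 0.013 and 0.030. Its neighbour P2ry13, another nucleotide receptor, was lower, at 0.30 ± 0.25 (adjusted p = 0.043) and 0.13 ± 0.12 (adjusted p = 0.32). Olfml3, a secreted protein of microglia, rose at PTC, with ratios of 1.19, 0.44 and 1.02. At 10PTC it was at 0.55, 0.03 and 0.44, which did not pass (adjusted p = 0.13). Tmem119, a surface protein used to tell microglia from other macrophages, was above 0 on all 6 arrays but did not pass, at 0.18 ± 0.20 (adjusted p = 0.10) and 0.17 ± 0.08 (adjusted p = 0.12). Siglech, a lectin-like receptor of microglia, had 0.10 ± 0.21 (adjusted p = 0.35) and 0.19 ± 0.06 (adjusted p = 0.098).

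The activation genes had a higher median than the homeostatic genes on 5 of the 6 arrays. The difference of the class medians was 0.69, -0.02 and 0.22 on PTC replicates 1 to 3 and 0.46, 0.31 and 0.24 on the 10PTC arrays. PTC replicate 2, with the lowest ratios, had no gap between the classes. Taken on the mean ratios of each dose, the difference was 0.19 at PTC and 0.46 at 10PTC, and no test was made of it. It depended on the arrays and the signals used. At PTC it was 0.07 without PTC replicate 1 and 0.66 from the scanner software's processed signals, and at 10PTC it was 0.76 from the processed signals and 0.22 under median centring. The classes overlapped broadly, since Cx3cr1 lay above 12 of the 15 activation genes at PTC.

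**Figure D2:**
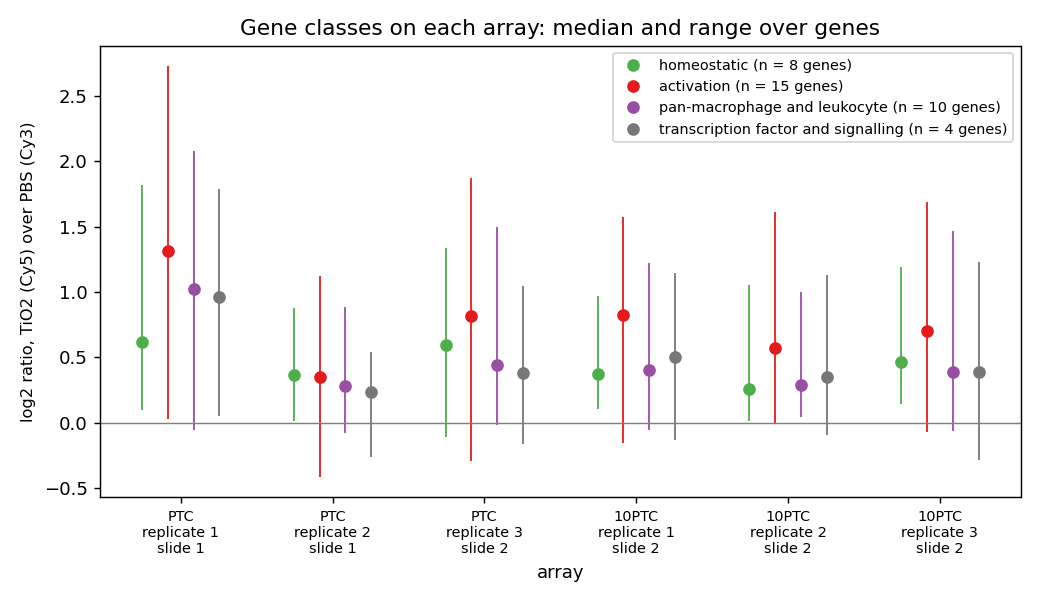
Median (point) and range from lowest to highest gene (line) of the log2 ratio, treated over PBS, for the 4 classes on each of the 6 arrays, with the slide below. The activation median (red) is above the homeostatic median (green) on all arrays except PTC replicate 2, and the ranges overlap on every array.

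Of the 10 pan-macrophage and leukocyte genes, 8 rose at PTC and 6 at 10PTC. Their medians were 0.58 and 0.36. Ly86, the secreted partner MD-1 of an innate immune receptor, was at 1.88, 0.85 and 1.50 at PTC and at 1.23, 1.00 and 1.47 at 10PTC, with adjusted p-values of 0.0022 and 0.0043. Mpeg1, a pore-forming protein of phagocytes, averaged 1.34 ± 0.65 and 0.97 ± 0.07. Aif1, which encodes the common microglial stain Iba1 (probe at mm9 chr17:35307959-35308018), was at 1.70, 0.67 and 1.34 at PTC and 1.09, 0.90 and 1.25 at 10PTC. It rose 2.36-fold (adjusted p = 0.0029) and 2.12-fold (adjusted p = 0.0058). Laptm5, a lysosomal protein of blood cells, had 0.98 ± 0.69 and 0.89 ± 0.10, and the tetraspanin Cd53 had 0.61 ± 0.38 and 0.43 ± 0.11; both rose at each dose. The control signal of Cd53 was well above background on 1 of 3 arrays at PTC and 2 of 3 at 10PTC, which limits its values.

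Ptprc, the leukocyte antigen CD45, did not pass, at 0.40, -0.08 and 0.05 at PTC and 0.25, 0.07 and 0.09 at 10PTC. Cd37, a tetraspanin found most on B cells, stayed within 0.07 of 0 on all 6 arrays with the probe used. Il10ra, which binds the anti-inflammatory cytokine IL-10, rose at PTC, at 0.55, 0.16 and 0.27 (adjusted p = 0.015). At 10PTC it was at 0.06, 0.04 and -0.05 (adjusted p = 0.87). Itgam, the integrin CD11b, and Emr1, a surface protein of mouse macrophages, are described with their probes.

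Of the 4 transcription factor and signalling genes, Irf8 and Inpp5d rose at both doses and the other 2 did not pass at either with the probe used. Irf8, a transcription factor that microglia need, was at 1.79, 0.54 and 1.05 at PTC and at 1.15, 1.13 and 1.23 at 10PTC, with adjusted p-values of 0.0058 and 0.0067. Inpp5d, the phosphatase SHIP1 that restrains signals from receptors such as Trem2, had 0.80 ± 0.45 and 0.77 ± 0.07 (adjusted p = 0.0066 and 0.0097). Sfpi1, which encodes PU.1, the master factor of the myeloid lineage, was at 0.05, -0.27 and -0.16 at PTC and at -0.13, -0.09 and -0.29 at 10PTC. Its treated signal was not well above background on any PTC array, so its change at that dose was not measurable. Runx1, a transcription factor of blood cell development, with the probe used had 0.25 ± 0.38 and 0.05 ± 0.09 (adjusted p = 0.16 and 0.77).

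Of the 37 genes, 13 had several probes that passed the filter, and the probes of 7 of them differed in whether they passed the test at one dose or the other. The value of a gene above is that of its brightest probe, which was not the probe with the highest ratio at PTC for 8 of the 13. At 10PTC the gap between probes was largest for Emr1. The probe used (mm9 chr17:57620350-57620409) had 1.01, 0.25 and 0.37 at PTC and 0.20, 0.25 and 0.31 at 10PTC, with adjusted p-values of 0.018 and 0.18. A probe farther along the gene (mm9 chr17:57622868-57622927) had 2.08, 0.55 and 1.37 at PTC and 1.29, 1.17 and 1.28 at 10PTC, with probe-level adjusted p-values of 0.0057 and 0.0093. At 10PTC every array of the second probe lay above every array of the first. Csf2rb had the same pattern: 0.06 ± 0.42 and 0.01 ± 0.17 with the probe used, and 0.99 ± 0.67 and 0.74 ± 0.18 with the other, which passed at both doses (adjusted p = 0.011 and 0.035). Csf2rb has a close copy in the genome, Csf2rb2, and whether these probes tell them apart was not tested.

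The first 30 bases of these probes are shown because the 2 probes of a gene read different stretches of its transcript. All are read 5′ to 3′ on the plus strand.
Emr1, probe used: atgaatataagaaactcctcaccaggaaga
Emr1, other probe: ggtgttccagaaattctcatttaataccca
Csf2rb, probe used (chr15:78179504-78179563): ctatcagcccatgccccaggcgccagccat
Csf2rb, other probe (chr15:78181168-78181227): tcactcacatgatggcagacatagaatgtg

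For Itgam and Siglech, the brightest probe held a tandem repeat, given in capitals, and another probe of the gene did not. Of the array, 310 of the 39429 probes (0.786%) hold a repeat of at least 16 bases with a unit of up to 4 bases, and these are 2 of the 53 member probes. The Siglech stretch is bases 31 to 60 of its probe, the others bases 1 to 30.
Itgam, probe used (chr7:135261755-135261814): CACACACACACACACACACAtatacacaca
Itgam, another probe (chr7:135260275-135260334): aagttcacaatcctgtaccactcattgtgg
Itgam, a further probe (chr7:135212140-135212199): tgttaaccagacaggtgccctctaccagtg
Siglech, probe used (chr7:63029188-63029247): tctgtctcAAAGAAAGAAAGAAAGAAAGAA
Siglech, other probe (chr7:63028926-63028985): acaacagttaaattcccttgcagagacatc

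The repeat probe of Itgam had 0.32, 0.47 and 0.20 at PTC and 0.28, 0.27 and 0.30 at 10PTC and passed at both doses. The second Itgam probe had 0.33 ± 0.27 and 0.10 ± 0.06 and passed at PTC alone, and the third had -0.08 ± 0.08 and -0.11 ± 0.02 and did not pass. The direction for Itgam thus differs between its probes. Neither probe of Siglech passed: the second had 0.11 ± 0.18 and -0.01 ± 0.10. The probes of a gene also differed in brightness. In median Cy3 signal the repeat probe of Siglech stood at 49268 and its other probe at 134. The repeat probe of Itgam stood at 10343, against 268 for the second probe and 208 for the third. Whether the repeat bears on these values was not tested. With both repeat probes left out, 28 genes rose at PTC and 23 at 10PTC (32.7% and 27.4% of all genes passed).

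Cd84, a receptor of the SLAM family, rose slightly with the probe used, at 0.23 ± 0.03 and 0.26 ± 0.17 (adjusted p = 0.031 and 0.025). Its other probe, with a control signal not well above background on any array, was 1.84-fold higher at PTC and 1.51-fold at 10PTC. These folds are of uncertain size. The other probe of Cd37 had 0.25 ± 0.20 at PTC (probe-level adjusted p = 0.036), against -0.04 ± 0.02 with the probe used, and 0.15 ± 0.08 at 10PTC, which did not pass. Cx3cr1 passed with each of its 2 probes at both doses, but by unequal amounts, 1.34 against 0.61 at PTC and 1.07 against 0.62 at 10PTC. Of the 3 probes of Csf1r, the one used had the highest ratios, another had 0.46 ± 0.21 and 0.17 ± 0.04 and passed at PTC alone, and the third had 0.15 ± 0.11 and 0.09 ± 0.06 and did not pass. The other probe of Mpeg1 had 0.53 ± 0.64 and 0.48 ± 0.19 and passed at neither dose. The other probe of Runx1 passed at both, with 0.28 ± 0.18 (probe-level adjusted p = 0.019) and 0.37 ± 0.07 (probe-level adjusted p = 0.0099).

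**Figure D3:**
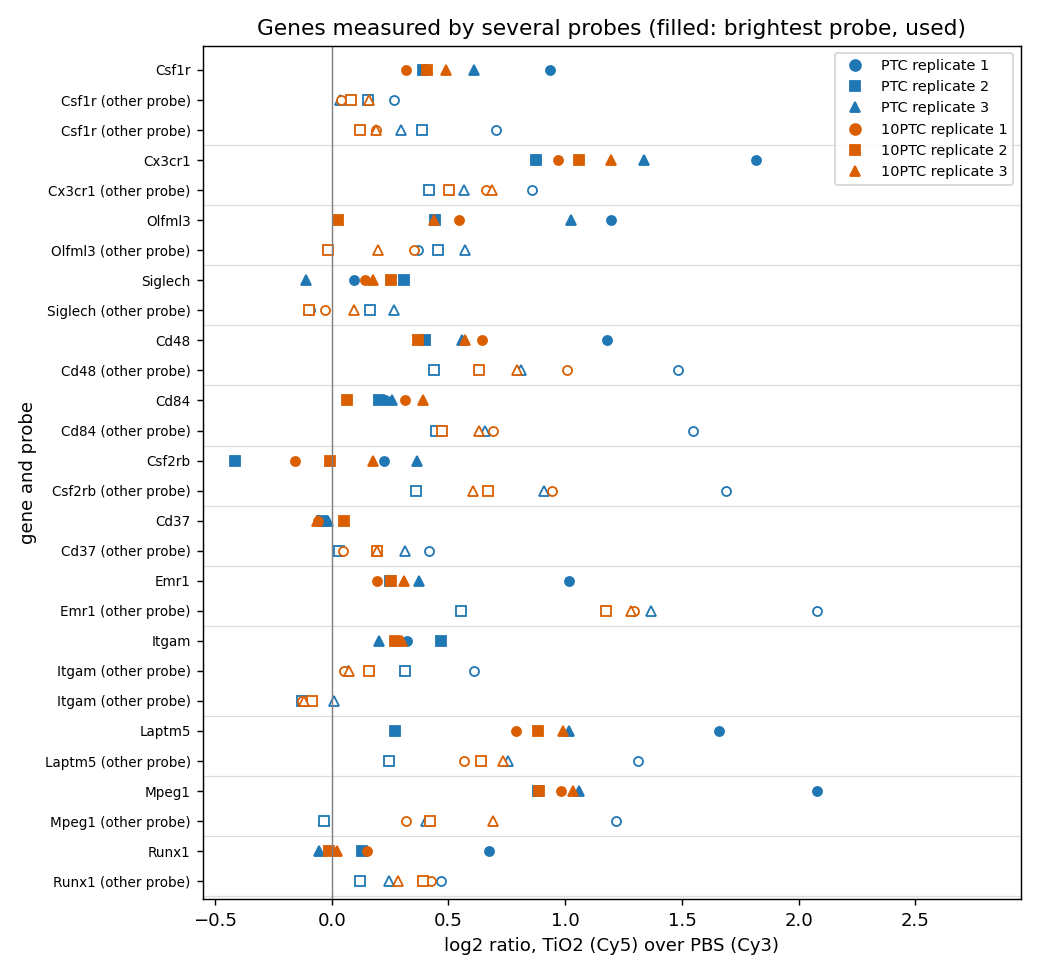
Log2 ratio, treated over PBS, for every probe of the 13 genes with several measured probes (rows), 1 point per array (blue PTC, orange 10PTC, shape by replicate), filled for the brightest probe, which was used. The other probes of Emr1 and Csf2rb lie to the right of the probe used, and the probes of Itgam lie on both sides of 0.

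A 10-fold change of dose gave no difference in these genes that passed the test. Dose went largely with slide, since only PTC replicate 3 shared slide 2 with the 10PTC arrays. A difference between slides thus cannot be fully told apart from dose. With slide as a block, 0 of all genes passed between the doses as well. Between 10PTC and PTC, 0 of the 37 genes and 0 of the 26153 passed in limma (0%), and 2 of the 37 had an unadjusted p under 0.05, as had 2133 of all genes (8.16%). The mean was lower at 10PTC than at PTC for 28 of the 37, and the median difference was -0.13. This order rests on 1 array: without PTC replicate 1 the median difference was 0.05. The 2 genes were Il10ra, with a difference of -0.30 (95% interval -0.55 to -0.06, adjusted p = 0.57), and Olfml3, with -0.55 (-1.04 to -0.06, adjusted p = 0.59). Il10ra was the only one of the 37 whose PTC and 10PTC arrays did not overlap, as was the case for 15.5% of all genes. For Trem2 the difference was -0.28, with an interval from -1.09 to 0.53, and for Tyrobp -0.20, from -0.95 to 0.55. For P2ry12 it was -0.07, from -0.40 to 0.25. The intervals are wide, so that a moderate difference between the doses in either direction could not have been seen for Trem2 or Tyrobp.

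PU.1 and its partners bind purine-rich sites, and the letters GAGGAAGT and the shorter GAGGAAG, which the longer contains, were searched on both strands of RefSeq promoters (GRCm38.p6, 250 bases before to 50 after the start). The table held 31 promoters of 26 of the genes. The longer letters were in 3 of the 31 (9.68%), those of Cd37, Cd53 and Inpp5d, against 3.2% of 32851 promoters. The shorter were in 10 of the 31 (32.26%), of 9 genes, against 13.63%. Of these 9, Cd53, Fcgr1, Fcgr3, Inpp5d, Itgam, Laptm5, P2ry13 and Trem2 rose at PTC, and Cd37 did not pass with the probe used. Of all 37 members 28 rose at PTC, and 16.8% of all genes did. P2ry13 did not pass at 10PTC, and the probes of Itgam differ in direction. The match of Cd53 lay after the start, as did 1 of the 2 of Itgam. A match is a description of the sequence and no sign that PU.1 is bound there. The 100 bases before the start are shown for 3 of them, with the match in capitals. They are Inpp5d and Trem2, which rose at both doses, and Cd37, which passed at neither with the probe used. The other probe of Cd37 passed at PTC.
Inpp5d, chr1:87620212-87620311, plus strand: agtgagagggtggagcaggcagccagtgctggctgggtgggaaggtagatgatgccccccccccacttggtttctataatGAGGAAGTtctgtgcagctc
Trem2, chr17:48346301-48346400, plus strand: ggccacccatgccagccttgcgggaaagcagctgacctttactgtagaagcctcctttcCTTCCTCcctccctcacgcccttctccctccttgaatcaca
Cd37, chr7:45238840-45238939, minus strand: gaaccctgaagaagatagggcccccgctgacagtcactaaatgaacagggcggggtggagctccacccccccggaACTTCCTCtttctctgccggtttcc

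Genes of the pathway around the receptors were read next. Of 18 measured genes of Trem2 and Fc receptor adaptor signalling, 13 rose and 1 fell at PTC (median 0.61), where 33.1% of all genes passed. At 10PTC 4 rose and 1 fell (median 0.40), a share close to the 27.7% of all genes. Vav1, an exchange factor for Rac, had 1.21 ± 0.62 (adjusted p = 0.0046) and 0.95 ± 0.08 (adjusted p = 0.013). Syk, the kinase that the adaptors recruit, had 0.63 ± 0.57 (adjusted p = 0.032) and 0.44 ± 0.04 (adjusted p = 0.10). Of 8 measured ligands of receptors on microglia, 2 rose and 2 fell at PTC, and 1 rose and 2 fell at 10PTC. Cd47, a surface signal that restrains phagocytes, had the largest rise, 0.65 ± 0.48 (adjusted p = 0.017) and 0.86 ± 0.09 (adjusted p = 0.0084). Cx3cl1, the ligand of Cx3cr1, fell by 0.60 at PTC (adjusted p = 0.0041) and by 0.34 at 10PTC (adjusted p = 0.032). Il34, a ligand of Csf1r, fell by 0.41 and 0.33 (adjusted p = 0.0037 and 0.0097). Csf1, its other ligand, had 0.45 ± 0.41 (adjusted p = 0.034) and 0.42 ± 0.05 (adjusted p = 0.050, which did not pass).

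Further genes of each state were read from lists of 20, where 16.8% of all genes rose at PTC and 14.4% at 10PTC. Of the genes that rise in disease-associated microglia, 16 of 20 rose at PTC and 10 of 20 at 10PTC, with 0 lower (medians 0.66 and 0.48). Clec7a, a receptor for fungal sugars, was the highest at 10PTC, with 2.07 ± 0.89 at PTC (adjusted p = 0.0026) and 1.97 ± 0.17 at 10PTC (adjusted p = 0.0040). Apoe, a lipid carrier that Muller glia and astrocytes also make, had 0.67 ± 0.30 and 0.86 ± 0.08. Of 20 further homeostatic genes, 12 rose and 1 fell at PTC and 10 rose and 1 fell at 10PTC (medians 0.29 and 0.20). Mertk, a receptor for the uptake of dying cells, had 0.54 ± 0.25 (adjusted p = 0.0043) and 0.45 ± 0.02 (adjusted p = 0.0097). Smad3, of the TGF-beta pathway, was the gene that fell, by 0.21 and 0.15. Of 14 myeloid transcription factors outside the set, 6 rose at PTC, and 4 rose and 1 fell at 10PTC, with Fli1 at 0.58 ± 0.21 and 0.46 ± 0.11.

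Markers of other cells were read beside these values. For comparison, 33.1% of all genes passed and 16.8% rose at PTC, and 27.7% passed and 14.4% rose at 10PTC. Of 16 measured monocyte and border macrophage markers, 5 rose and 3 fell at PTC, and 0 rose and 2 fell at 10PTC. The median of this list was 0.60 on PTC replicate 1, where the microglial genes were highest, and between -0.12 and 0.06 on the other arrays. Cd209f and Lyve1, markers of border macrophages, fell at both doses, by 1.18 and 0.98 and by 0.40 and 0.34. Clec4n, Fn1, Stab1 and Mrc1, of which Stab1 and Mrc1 also mark border macrophages, rose at PTC, at 1.54 ± 1.02, 1.05 ± 0.80, 0.88 ± 0.77 and 0.47 ± 0.41. None of these 4 passed at 10PTC, where they were at 0.61, 0.45, 0.60 and 0.05. Ccr2, the receptor of inflammatory monocytes, had 0.39 ± 0.31 (adjusted p = 0.088) and 0.12 ± 0.39 (adjusted p = 0.59). Of 9 dendritic cell markers, 5 rose and 1 fell at PTC and 4 rose at 10PTC. The 4 at 10PTC were the antigen presentation genes H2-Ab1, H2-Eb1, H2-Aa and Cd74, and the median of the list was 1.14 on PTC replicate 1 and 0.08 to 0.48 elsewhere. Ccr7 rose at PTC alone, at 0.56 ± 0.52 (adjusted p = 0.036). Flt3, a defining receptor of dendritic cells, fell by 0.38 at PTC and did not pass at 10PTC, at -0.14 (adjusted p = 0.35). Zbtb46, Clec9a and Cd209a passed at neither dose, at -0.04, -0.02 and 0.22 at PTC.

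Among 10 neutrophil markers, 2 rose at PTC and 3 at 10PTC, where 16.8% and 14.4% of all genes rose. Lcn2 rose the most, at 1.69 ± 0.97 and 1.96 ± 0.48, and whether neutrophils were its source was not tested. Csf3r, a growth factor receptor of neutrophils, rose at both doses, at 0.20 ± 0.15 and 0.40 ± 0.08, and Mpo rose at 10PTC, at 0.16 ± 0.04. S100a8 had 1.19 ± 1.41 and 0.32 ± 0.46, S100a9 0.86 ± 1.60 and -0.07 ± 0.66, and Ly6g -0.17 ± 0.13 and -0.12 ± 0.27, none of which passed. Camp, Ltf, Elane and Mmp9 lay between -0.19 and -0.02 at both doses, and none of them passed. Of 11 T and NK cell markers, 2 rose and 2 fell at PTC and 1 rose and 2 fell at 10PTC. These shares were close to those of all genes that passed, 33.1% at PTC and 27.7% at 10PTC. Of 7 B cell markers, Igj rose at each dose and no other passed. Of 4 mast cell markers, 0 rose, and 2 fell at PTC and 3 at 10PTC. Among these lists, 4 neutrophil, 4 T and NK, 2 B cell, 1 dendritic and 3 mast cell markers were too dim to be measured. The part of such cells in the rise of the microglial genes was not tested.

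Markers of other tissues, of other cells of the retina and of proliferation were read as well. The shares of all genes that passed were 33.1% at PTC and 27.7% at 10PTC, and 16.8% and 14.4% rose. All 14 skeletal muscle markers fell at both doses, with array medians of -3.42 to -2.60 at PTC and -2.46 to -2.19 at 10PTC, and each of the 14 was measurable above background in treated and control RNA on all 6 arrays. Of 5 red blood cell markers, 4 fell and 1 rose at PTC, and 3 fell and 1 rose at 10PTC, with array medians of -1.72 to -0.47 and -1.31 to -1.12. Of 11 rod markers, 4 rose at each dose, with array medians of -0.12 to 0.37 and 0.17 to 0.24, and PTC replicate 1 was the lowest. Of the 10 Muller glia and astrocyte markers, 6 rose and 1, Glul, fell at each dose, with Gfap, a marker of reactive glia, at 1.61 ± 0.62 and 1.44 ± 0.12. Of 9 endothelial markers, 2 rose and 2 fell at PTC, and 1 rose and 1 fell at 10PTC. Of 10 proliferation genes, 4 rose at PTC, Mcm3, Top2a, Ccna2 and Mki67, and 2 at 10PTC, Ccna2 and Top2a. The part of tissue composition in the values of the 37 genes was not tested.

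**Figure D4:**
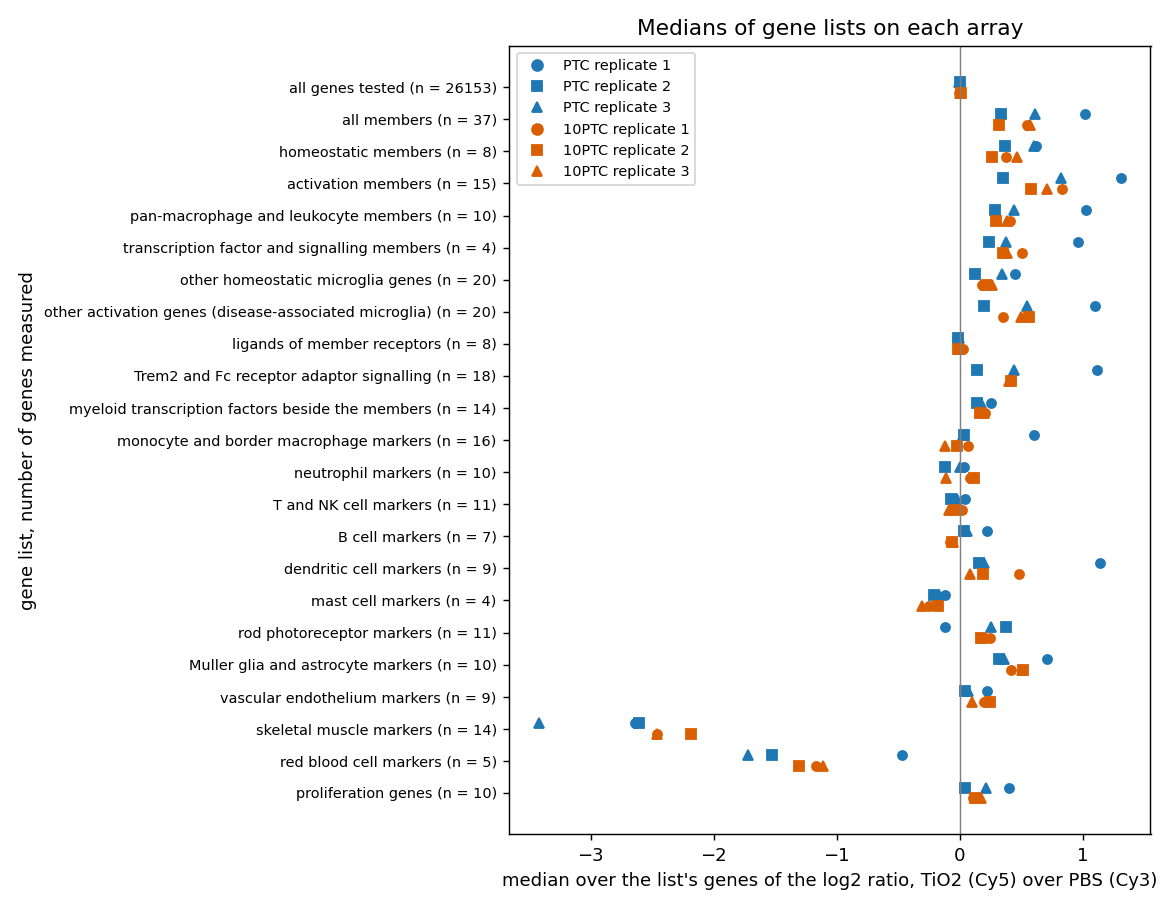
Median log2 ratio, treated over PBS, of each gene list on each array (blue PTC, orange 10PTC, shape by replicate), with the number of genes measured and all genes at the top. The 4 classes of the 37 genes lie above 0 on all 6 arrays, and skeletal muscle markers lie between -3.42 and -2.19. PTC replicate 1 is the highest array in the 4 classes. It is also the highest in other lists, among them those of monocytes, dendritic cells and adaptor signalling.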

How the data were processed

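Each array carried 60-base probes (design 026655). Per the file headers, the deposited intensity values of both channels and their log10 ratio come from version 10.7.3.1 of Agilent Feature Extraction, run with protocol GE2_107_Sep09; the submitters' processing notes name 9.3.2.1. The authors' table of log2 ratio values, also deposited, followed the scanner's ratios with r of 0.983 to 0.9995 in the direction Cy5 over Cy3; their centring stays unknown (column medians -0.08 to 0.04).

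Mean signals and median backgrounds were corrected by normexp (offset 50) and normalized by loess within arrays in limma 3.58.1 (R 4.3.3, version 1.17.8 of data.table), with 1377 control spots at weight 0 and 185 to 274 outlier spots per array left out. Of 39429 probes, 26055 were named by accession, 3195 by symbol and 930 by synonym through RefSeq (GRCm38.p6), and 9249 kept the file's name. Probes had to exceed background clearly in either channel on 3 or more of the 6 arrays, which left out 6918, and the brightest probe stood for a gene. The limma model had 1 coefficient per dose, with 4 residual and 3.4 prior degrees of freedom. Median Cy3 signals of 153 to 221 and Cy5 signals of 187 to 347, over backgrounds of 26 to 29 and 47 to 48, and the number of arrays limit the precision. Coordinates of probes come from the array design (mm9); no genome was used. The steps were tested on simulated data.

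The members and the other lists were chosen with earlier results of these data known. All members are named, with every probe where signs or calls differ, and of each other list up to 4 genes with the smallest p, of which a few are not reported here; further genes of those lists are named as defining markers, chosen after their values were seen. Alternatives were other signals, offsets, centring, filters and probe rules, the authors' table, blocks, slides, doses fitted alone and each array left out; the dimmest probe and the omission of repeat probes were added after seeing the data.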

Additional observations from a re-analysis of the deposited data

How the results depend on the processing

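Over all alternatives, 179 of 202 values of the counts, medians and class differences stayed close to the reported value (medians and differences within 1 SD of the replicates) and 23 moved. Among the close ones, the median between the doses changed sign, to 0.05, without PTC replicate 1. Of 1505 values of single genes, 1323 kept their side of the threshold, 143 lost the call, 34 gained it and 5 reversed. The cause was not tested for any of them. The scanner's processed signals gave a class difference of 0.66 at PTC and 0.76 at 10PTC and a median of 0.77 at 10PTC. The authors' deposited table gave medians of 0.95 and 0.79 and class differences of 0.66 and 0.76, and offset 0 gave a median of 0.59 and a class difference of 0.72 at 10PTC. At that dose the class difference was 0.22 under median centring, 0.58 with the mean over probes and 0.64 with the dimmest probe. Without background subtraction, within slide 2 and with 10PTC fitted alone, 1 gene fell at 10PTC, and with median centring 1 did at each dose (Sfpi1 each time, whose treated signal at PTC was not well above background). With slide as a block 1 gene rose at 10PTC, and within slide 1 (2 arrays) 0 rose at PTC. Leaving out 1 array gave 22 to 28 genes higher and 0 to 2 lower at PTC, and 5 to 26 higher and 0 to 1 lower at 10PTC. Of all genes, 19.1% to 30.1% passed at PTC and 5.16% to 34.9% at 10PTC in these fits. Median centring turned Lgmn to 0.25 and Cd37 to 0.16 at 10PTC, and the dimmest probe turned Itgam to -0.082 and -0.11 and Cd37 to 0.25 at PTC. Of the 28 genes called at PTC, 18 passed in all 19 alternatives other than those within 1 slide, where PTC has 2 arrays or 1; of the 24 at 10PTC, 5 passed in all 19 other than the slide block: Cx3cr1, Itgax, Ly86, Trem2 and Tyrobp. The counts over all genes ranged more widely, from 289 within slide 1 to 12444 under median centring at PTC and from 1008 with the slide block to 14661 at 10PTC. Samples of the same number did not deviate together (correlations of -0.27, 0.15 and 0.20), so the numbers were not taken to pair the samples; with the replicate block 28 and 25 members rose, and 6445 and 4808 of all genes passed. Msr1, Sfpi1, Cd68 and Cd53 were limited by signal near background.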
